A study of Rattus norvegicus with 2 samples.

Results

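The collagen genes were compared between DRGs of the side whose tibia had been inoculated with IP-B12 and DRGs of the other side. Any probe set (the several short probes on the array that read a transcript) counted as a collagen where its only gene symbol was that of a collagen chain. That gave 58 probe sets of 41 genes, out of 20826 probe sets of 14217 genes with 1 symbol. Where a gene had several, the one with the highest mean of both log2 signals stood for it. The annotation lists 44 collagen genes of the rat, and Col28a1, Col4a3 and Col6a4 were not analysed here.

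Female SD rats, 4 weeks old, were given 100000 cells of IP-B12 into the right tibial marrow; this line comes from a pulmonary carcinoma of the rat and destroys bone as it grows. DRGs were taken 14 days later. The tumor side is 1 array, and the control side, which is the left-tibia DRGs of inoculated rats, is 1 array. The number of rats behind an array is not given, and the left tibia is not said to have had a sham injection. Replicate error is therefore unknown, no test was possible, and every difference describes these arrays only. Values are MAS 5.0 signals on a linear scale, which compare the sides of a probe set but not different probe sets. The median signal was 72.7 on the tumor-side array and 69.0 on the control-side array, and the median of the log2 ratios, tumor side over control side, was 0.08 over the 9691 genes above the signal rule. A gene is above this rule where its stronger side is at least as bright as that array's median probe set. For actin, the ratio of 3′ to 5′ signal was 9.22 on the tumor side and 8.79 on the control side, and for GAPDH it was 1.23 on the tumor side and 1.20 on the control side. Sensory neuron (SN) markers, which check the labelled tissue, were above the rule in 14 of 14 measured, with summed signals of 46383 on the tumor side and 46186 on the control side.

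Collagens are secreted as chains wound around each other in a rope-like helix, with glycine at regular intervals, and they are the main structural proteins of connective tissue. In a DRG they lie in the capsule and epineurium, around nerve fibres and in the basement membranes of glia and vessels. Fibrillar collagens form banded fibrils, and FACITs (fibril-associated collagens with interrupted helices) sit on the surface of those fibrils. Type IV chains form the sheet of basement membranes. Types II, IX, X and XI are best known from cartilage, and type X from its hypertrophic zone.

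Promoter sequences were at hand for 32 of the 41 genes (RefSeq, build GRCr8), each from 250 bases before to 50 after the annotated start. The windows below are shown because the results turn on these genes. They are Col1a2, the partner chain of Col1a1, Col4a1, which shares its promoter region with Col4a2, and Col11a1, the cartilage collagen with the highest ratio. Capitals mark CCAAT boxes (CCAAT or ATTGG on the other strand), GC boxes (GGGCGG or CCGCCC) and TATA boxes (TATAAA or TTTATA), none of which overlap in these windows.
Col1a2 (chr4:33518307-33518606, + strand): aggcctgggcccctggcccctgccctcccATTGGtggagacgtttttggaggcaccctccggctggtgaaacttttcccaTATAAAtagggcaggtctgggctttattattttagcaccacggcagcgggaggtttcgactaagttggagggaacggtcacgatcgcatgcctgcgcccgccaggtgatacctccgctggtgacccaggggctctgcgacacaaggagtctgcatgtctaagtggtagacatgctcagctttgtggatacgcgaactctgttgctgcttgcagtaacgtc
Col4a1 (chr16:84885347-84885646, + strand): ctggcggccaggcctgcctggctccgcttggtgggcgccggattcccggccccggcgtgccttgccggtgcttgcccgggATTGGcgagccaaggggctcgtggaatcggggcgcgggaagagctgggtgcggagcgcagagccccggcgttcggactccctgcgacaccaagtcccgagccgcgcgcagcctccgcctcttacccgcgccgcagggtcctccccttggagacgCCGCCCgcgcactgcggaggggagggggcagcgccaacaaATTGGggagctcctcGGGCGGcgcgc
Col11a1 (chr2:204508886-204509185, + strand): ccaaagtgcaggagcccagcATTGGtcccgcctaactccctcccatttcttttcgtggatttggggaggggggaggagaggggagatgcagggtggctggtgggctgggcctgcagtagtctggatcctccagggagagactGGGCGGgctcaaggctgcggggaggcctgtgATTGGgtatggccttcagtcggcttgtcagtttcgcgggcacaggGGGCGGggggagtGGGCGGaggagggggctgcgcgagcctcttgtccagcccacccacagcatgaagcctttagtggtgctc

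The annotated start of Col4a2 lies within the Col4a1 window, on the opposite strand and 77 bases from the start of Col4a1, so that the same stretch of DNA precedes both genes. In the Col1a2 window the TATA box begins 170 bases and the CCAAT letters 221 bases before the annotated start. The Col11a1 window holds 3 GC boxes and 2 CCAAT boxes. Over the 32 collagen promoters, 18 (56.3%) hold a GC box, 9 (28.1%) a CCAAT box and 4 (12.5%) a TATA box. Over all 27457 promoters of this length, the shares were 34.9%, 37.7% and 14.3%. These are matches of letters and no evidence of a bound factor.

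As a family the collagens differed little between the sides. In whole ganglia, fewer cells of a type and less RNA per cell cannot be told apart. Of the 41 genes, 28 were above the signal rule, and all 28 had signals at or above the median on both arrays, so that no member passed through 1 side alone. Their median log2 ratio was 0.10, against 0.08 over all genes above the rule. Of the 28, 15 (53.6%) lay above the median gene, against 50.0% of all genes. None was at least 1.5 times higher or lower on the tumor side, where 1.19% of all genes above the rule were that much higher and 0.743% that much lower. At least 25% higher on the tumor side were 5 of 28 (17.9%), against 7.54% of all genes, and none was at least 20% lower, against 3.01%. These 5 were Col1a1, Col4a2, Col12a1, Col11a1 and Col6a1, each from a different class. This count rests on the scaling of the arrays. With log2 ratios centred on the median, 1 of 28, Col4a2, was at least 25% higher, against 3.92% of all genes.

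**Figure D1:**
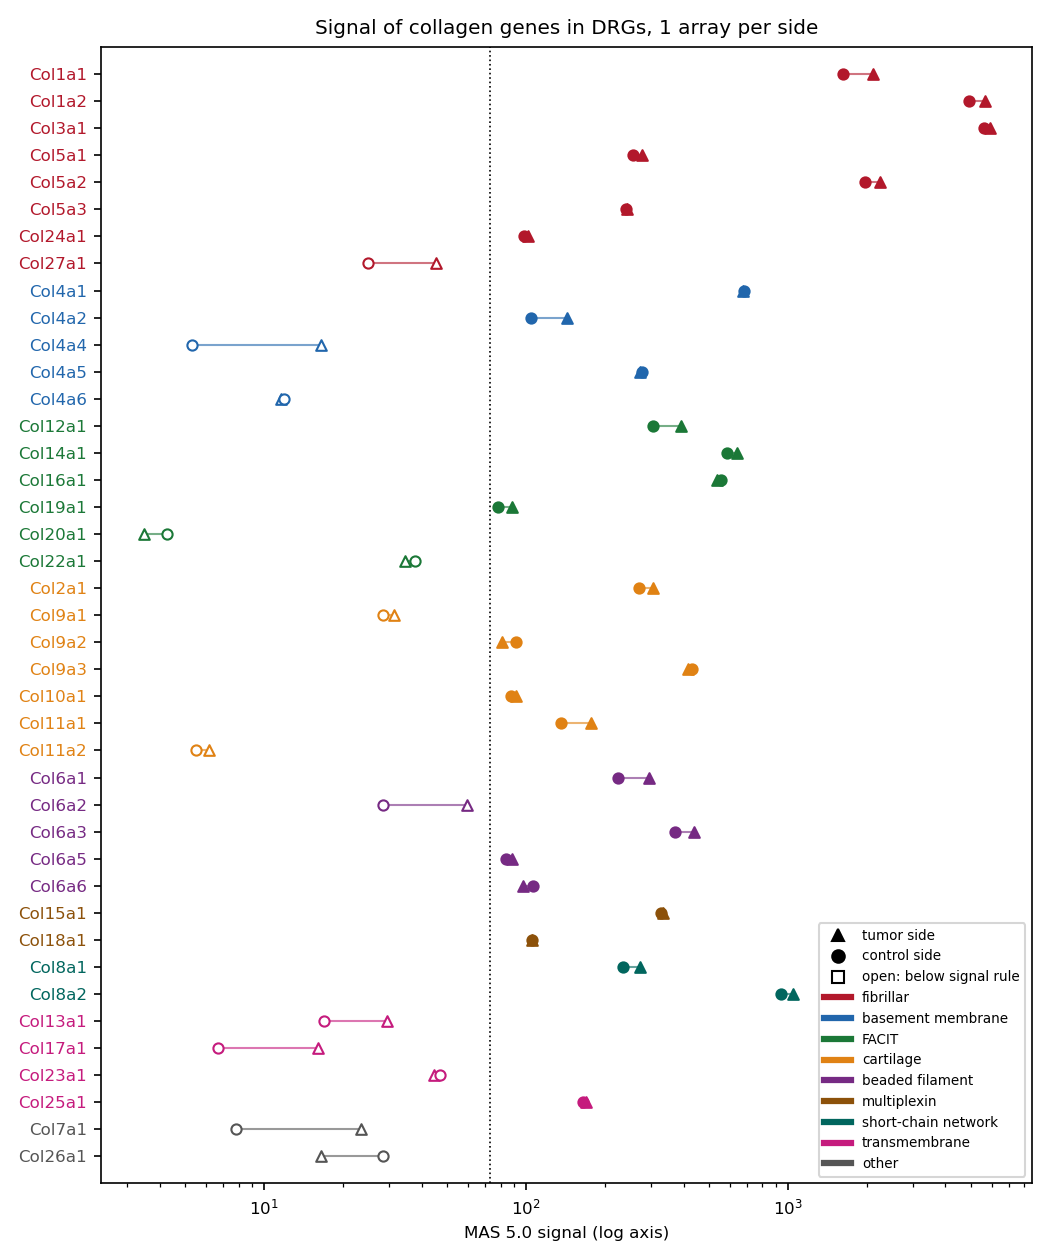
MAS 5.0 signal of each collagen gene on the tumor-side array (triangles) and the control-side array (circles), on a log axis, coloured by class, with open symbols for genes below the signal rule. The dotted line is the median signal of the tumor-side array, 72.7, and to its right the pairs of symbols lie close together, as for Col3a1 with 5900 on the tumor side and 5636 on the control side.

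Among the fibrillar collagens, all 7 above the rule had a deposited signal that was higher on the tumor side, by folds from 1.01 to 1.31, but relative to the median gene 4 of 7 were higher. Their median log2 ratio was 0.12. Col1a1, the α1 chain of type I collagen of bone, skin and tendon, had a signal of 2113 in tumor-side DRGs and 1618 in control-side DRGs (log2 ratio 0.39). Col1a2, its partner in the same molecule, had 5639 in tumor-side DRGs and 4925 in control-side DRGs (0.20). Type I chains were thus higher on the tumor side by 1.31 and 1.15 times. Col3a1, the collagen of reticular fibres, had 5900 in tumor-side DRGs and 5636 in control-side DRGs (0.07), which is below the median gene. Col5a2, a chain of the type V collagen that sits inside type I fibrils and sets their diameter, had 2254 in tumor-side DRGs and 1972 in control-side DRGs (0.19). Col5a1, the other main chain of type V, had 279 in tumor-side DRGs and 257 in control-side DRGs (0.12). Both type V chains lay above the median gene, whereas the third, Col5a3, did not, with 243 in tumor-side DRGs and 241 in control-side DRGs (0.02). Col24a1, a minor fibrillar chain, had 101 in tumor-side DRGs and 98.7 in control-side DRGs (0.04). Col27a1 was the only fibrillar gene below the rule, with 45.4 in tumor-side DRGs and 25.03 in control-side DRGs, a ratio of 1.81 times at a dim signal.

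Log2 ratios scatter less at high signals, and the scatter of all genes gives a scale for these small differences in the absence of replicates. Genes above the rule were divided by mean signal into 10 bands of equal number. In the band of Col1a1, from 1089 to 2060, the middle 95% of log2 ratios ran from -0.11 to 0.28, and Col1a1 with 0.39 lay above it. It was the only one of the 28 collagens above the middle 95% of its band (3.57%), where 2.58% of all genes lay, and none lay below it, again against 2.58%. In the band of Col1a2, Col3a1 and Col5a2, the highest, the middle 95% ran from -0.09 to 0.23 and held all of them. These counts depend on the probe set, as each gene was read by its brightest. Against the same bands, the second probe set of Col1a1 lay inside (0.25, upper limit 0.34). Those of Col1a2 (0.27, limit 0.23) and Col14a1 (0.63, limit 0.46) lay above, and the other second probe sets above the rule lay inside. With every gene taken as the mean over its probe sets and the bands formed anew, no collagen lay above the middle 95%. With only genes at or above percentile 75 of signal, 2 did, Col1a1 and Col1a2.

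**Figure D2:**
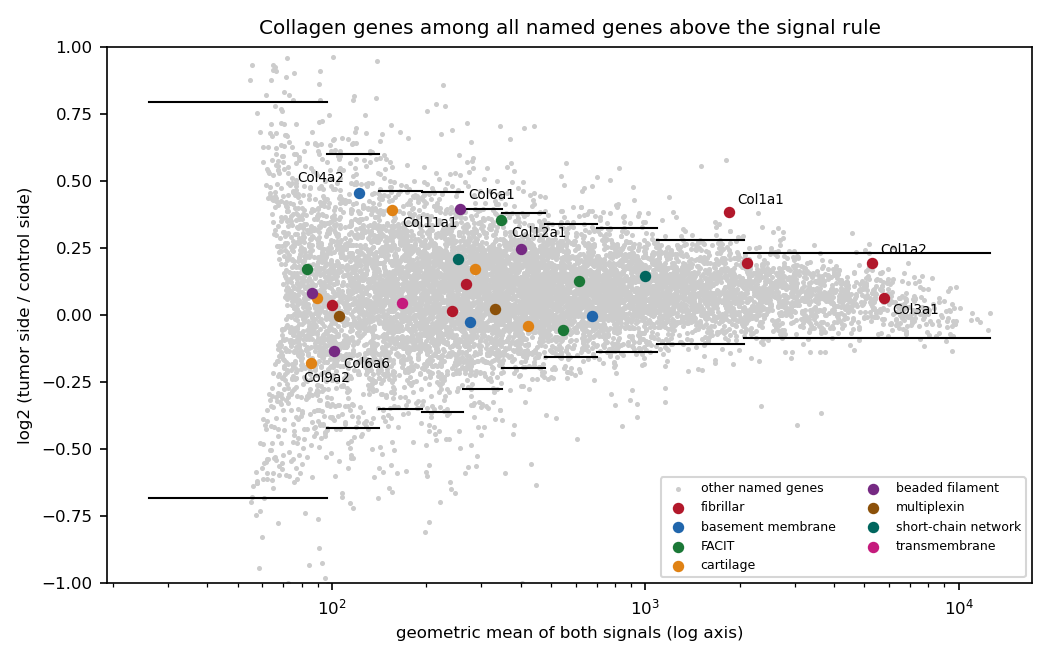
Log2 ratio (tumor side over control side) against the geometric mean of both signals (log axis) for named genes above the signal rule, with collagens coloured by class. Black lines bound the middle 95% of log2 ratios in each band of signal. Among the collagens, each drawn by its brightest probe set, only Col1a1 (log2 ratio 0.39) lies outside them, and 31 genes beyond a fold of 2 are not drawn.

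Among the basement membrane collagens, Col4a2 stood apart from its partner chain. Col4a2, which with Col4a1 makes the common type IV molecule of all basement membranes, had 143 in tumor-side DRGs and 104 in control-side DRGs, 1.37 times higher (log2 ratio 0.46, the highest of the 28). Col4a1 had 677 in tumor-side DRGs and 678 in control-side DRGs (0.00), and 375 and 360 on a second probe set (0.06). The ratios of these chains, whose genes start 77 bases apart, differed by 0.46 on the log2 scale, the widest gap among the 7 groups of partner chains with a pair above the rule. The ratio of Col4a2 rests on 1 probe set, and it lay within the middle 95% of its band of signal, from -0.42 to 0.60. Col4a5, a chain of the type IV network of specialised membranes, had 273 in tumor-side DRGs and 278 in control-side DRGs (-0.03). Col4a6 and Col4a4 were below the rule. Col4a6 had 11.6 in tumor-side DRGs and 11.9 in control-side DRGs, and its second probe set was no brighter than the trp control probe sets. Col4a4 had 16.5 in tumor-side DRGs and 5.33 in control-side DRGs, where it was no brighter than the trp control probe sets, which reached 5.39 and detect no rat transcript, so no fold is given. The median log2 ratio of the 3 basement membrane genes above the rule was 0.00, with 1 of 3 above the median gene.

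FACITs lay on both sides of the median gene. Col12a1, which bridges type I fibrils in tendon and other dense tissue, had 392 in tumor-side DRGs and 306 in control-side DRGs, 1.28 times higher (log2 ratio 0.35). Of its other probe sets, one was below the rule with 50.2 in tumor-side DRGs and 32.4 in control-side DRGs, and the last was no brighter than the trp control probe sets. Col14a1, a FACIT of mature fibrils, had 642 in tumor-side DRGs and 587 in control-side DRGs (0.13). Its second probe set gave a larger difference, with 301 in tumor-side DRGs and 194 in control-side DRGs, 1.55 times higher. Col19a1, a minor FACIT found near basement membranes, had 88.3 in tumor-side DRGs and 78.5 in control-side DRGs (0.17). Col16a1, which associates with fibrils and microfibrils, was the FACIT above the rule that was lower on the tumor side, with 537 there and 557 on the control side (-0.05). Col22a1, known from tissue junctions such as those of muscle and tendon, was below the rule with 34.7 in tumor-side DRGs and 37.7 in control-side DRGs. Col20a1 had 3.47 in tumor-side DRGs and 4.26 in control-side DRGs, no brighter than the trp control probe sets of either array. The median of the 4 FACITs above the rule was 0.15, with 3 of 4 above the median gene. Type IX chains are FACITs too but were counted with the cartilage collagens, and with them the median was 0.04, with 3 of 6 above the median gene.

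Cartilage collagens had no common direction. Col11a1, a chain of the thin fibrils of cartilage that is also made outside it, had 178 in tumor-side DRGs and 136 in control-side DRGs, 1.31 times higher (log2 ratio 0.39), and 148 and 118 on a second probe set (0.33). The last, dim probe set of Col11a1 had 5.88 in tumor-side DRGs and 7.35 in control-side DRGs. Col2a1, the main fibrillar collagen of cartilage, had 305 in tumor-side DRGs and 271 in control-side DRGs (0.17). Its other probe sets, both dim, went the other way, with 40.3 and 11.6 in tumor-side DRGs against 46.1 and 20.3 in control-side DRGs. Col10a1, the collagen of hypertrophic chondrocytes, had 91.7 in tumor-side DRGs and 87.7 in control-side DRGs (0.06). Type IX chains, which decorate type II fibrils, were lower or dim. Col9a2 had 80.7 in tumor-side DRGs and 91.4 in control-side DRGs (-0.18, the lowest of the 28), and Col9a3 had 417 in tumor-side DRGs and 429 in control-side DRGs (-0.04). Col9a1, below the rule, had 31.5 in tumor-side DRGs and 28.6 in control-side DRGs, and Col11a2, also below it, had 6.18 in tumor-side DRGs and 5.49 in control-side DRGs. Of the 5 above the rule 2 lay above the median gene, and the median was 0.06.

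**Figure D3:**
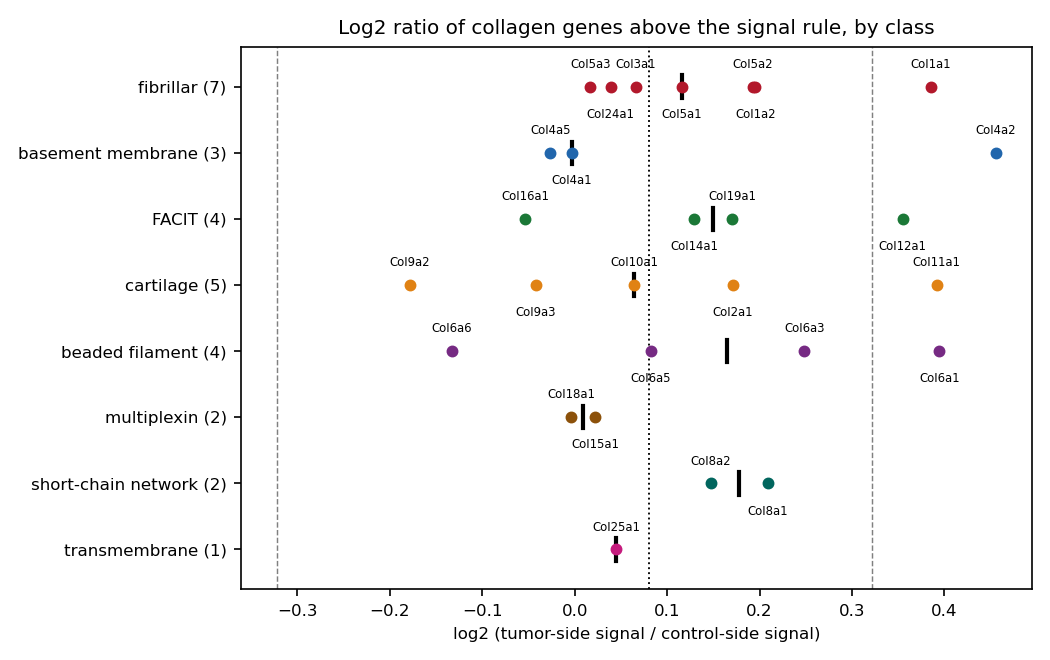
Log2 ratio (signal on the tumor side over that on the control side) of the 28 collagens above the rule. Each point is a gene, each row a class with its gene count in brackets, and each short bar a class median, with a dotted line at the median gene (0.08) and dashed lines at 25% higher and 20% lower. The 5 genes beyond the right dashed line belong to 5 classes.

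Set side by side, the class medians of the log2 ratio were 0.12 for fibrillar collagens, 0.00 for basement membrane collagens, 0.15 for FACITs and 0.06 for cartilage collagens. The widest gap between these medians was 0.15, between FACITs and basement membrane collagens, and in each of the 4 classes the genes spanned a wider range than that. The order of the classes changed with the processing. Without a signal filter the medians were 0.15 for fibrillar, 0.04 for FACIT and 0.14 for cartilage collagens, and basement membrane collagens stayed at 0.00. That setting counts dim genes too, among the FACITs Col22a1 and Col20a1. Col20a1 was no brighter than the trp control probe sets of either array, and the fall of the FACIT median rests partly on it. When probe sets were averaged for each gene, the medians were 0.28 for FACITs and -0.04 for cartilage collagens. With only genes at or above percentile 75 of signal the median was 0.19 for fibrillar collagens. In that setting the cartilage value, -0.04, was that of Col9a3 alone, and the basement membrane value, 0.00, that of Col4a1 alone. Whether classes differ was not tested.

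Outside these classes, Col6a1 was the only gene above the rule that was at least 25% higher. Type VI collagen forms beaded filaments around cells and near basement membranes. Col6a1 had 294 in tumor-side DRGs and 224 in control-side DRGs, 1.31 times higher (log2 ratio 0.39), and its partner Col6a3 had 439 in tumor-side DRGs and 369 in control-side DRGs (0.25). A dim second probe set of Col6a3 had 17.7 in tumor-side DRGs and 21.9 in control-side DRGs. The remaining partner chain, Col6a2, was below the rule and gave no single direction. One of its probe sets had 59.6 in tumor-side DRGs and 28.5 in control-side DRGs, 2.09 times higher, and the other had 37.0 in tumor-side DRGs and 41.5 in control-side DRGs. Col6a5 had 88.7 in tumor-side DRGs and 83.8 in control-side DRGs (0.08), and Col6a6 had 97.2 in tumor-side DRGs and 107 in control-side DRGs (-0.13). Both common chains of type VI that passed the rule thus had ratios above the median gene, while the minor chains lay near or below the median gene.

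The short-chain collagens of type VIII, which build hexagonal networks in vessels and in the cornea, were close to each other. Col8a1 had 272 in tumor-side DRGs and 235 in control-side DRGs (log2 ratio 0.21), and Col8a2 had 1046 in tumor-side DRGs and 945 in control-side DRGs (0.15). The multiplexins of basement membrane zones, Col15a1 and Col18a1, the source of the fragment endostatin, had ratios near 0 on their brightest probe sets. Col15a1 had 334 in tumor-side DRGs and 329 in control-side DRGs (0.02), and 174 and 167 on a second probe set (0.06). Col18a1 had 105 in tumor-side DRGs and 106 in control-side DRGs (0.00), and 99.1 and 83.7 on a second probe set (0.24). Neither multiplexin was 25% higher or 20% lower on any probe set. Col25a1, a transmembrane collagen of neurons, had 170 in tumor-side DRGs and 165 in control-side DRGs (0.04).

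The genes left below the rule were dim on both arrays, and ratios there scatter widely. Of all 13, 11 had both signals above the trp control probe sets, and 7 of these 11 were higher on the tumor side, as were 53.6% of the 3212 named genes that met the same conditions. Col7a1, which makes the anchoring fibrils of skin, had 23.5 in tumor-side DRGs and 7.84 in control-side DRGs. Col17a1, a transmembrane collagen of hemidesmosomes, had 16.04 in tumor-side DRGs and 6.70 in control-side DRGs. Col13a1, a transmembrane collagen of the neuromuscular junction, had 29.4 in tumor-side DRGs and 16.9 in control-side DRGs. Col26a1 went the other way, with 16.4 in tumor-side DRGs and 28.5 in control-side DRGs, and Col23a1 had 44.8 in tumor-side DRGs and 47.1 in control-side DRGs. Of the 11, 5 were at least 1.5 times higher, against 15.3% of these 3212 genes, and 1 was at least 1.5 times lower, against 12.5%. The 5 were Col6a2, Col27a1, Col13a1, Col17a1 and Col7a1, of which Col6a2 had a second probe set that ran the other way.

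Probe sets of the same gene gave the only repeated measurement. Of 9 collagen genes with more than 1 probe set above the rule, 7 had them all higher on the tumor side as deposited, and in 6 of the 9 they lay within 0.2 of each other on the log2 scale. Col5a2 repeated most closely, with 1670 in tumor-side DRGs and 1458 in control-side DRGs on its second probe set (log2 ratio 0.20, against 0.19). Col1a2 had 3833 in tumor-side DRGs and 3184 in control-side DRGs on its second (0.27), and Col1a1 had 586 in tumor-side DRGs and 494 in control-side DRGs (0.25). Thus every probe set of the type I chains was higher on the tumor side as deposited, and each lay above the median gene (0.08). Col14a1 repeated least, with 0.13 and 0.63, followed by Col18a1 and by Col5a1, whose second probe set had 256 in tumor-side DRGs and 202 in control-side DRGs (0.34). Probe sets of the same transcript share the RNA and the array, so their agreement says nothing of other rats.

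**Figure D4:**
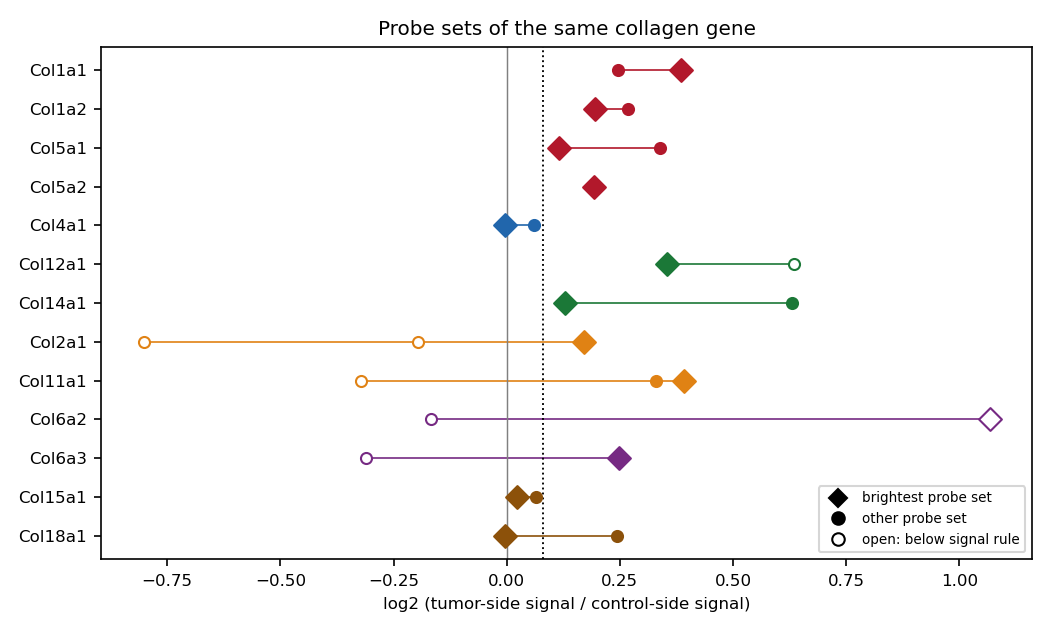
Log2 ratio (signal on the tumor side over that on the control side) of each probe set, for the collagen genes with more than 1 probe set above the trp control probe sets. Diamonds mark the brightest probe set, open symbols probe sets below the signal rule, the solid line 0 and the dotted line the median gene (0.08). The type I chains and Col5a2 repeat closely, while probe sets of Col6a2 and Col2a1 lie on either side of 0.

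Genes that fold, modify, cleave, crosslink, bind or degrade collagen were described from a separate list. Of 50 measured, 45 were above the rule, and the log2 ratios of these had a median of 0.12. Of the 45, 7 (15.6%) were at least 25% higher on the tumor side, against 7.54% of all genes above the rule, and 1 (2.22%) was at least 20% lower, against 3.01%. These counts used the deposited scale and were not repeated with centred log2 ratios. Centring left 3.92% of all genes at least 25% higher. The largest ratios belonged to collagen breakdown. Mmp13, a collagenase that cuts fibrillar collagen, had 441 in tumor-side DRGs and 103 in control-side DRGs, Ctsk, the collagen-degrading cathepsin of osteoclasts, had 564 in tumor-side DRGs and 346 in control-side DRGs, and Fap, a protease of activated fibroblasts, had 123 in tumor-side DRGs and 79.0 in control-side DRGs. These were the 3 of the 45 at least 1.5 times higher (6.67%), against 1.19% of all genes above the rule. Breakdown genes above the rule also included Mmp2 (log2 ratio 0.23), Mmp16 (0.22) and Mmp15 (0.09). Mmp14, of the same list, had 743 in tumor-side DRGs and 743 in control-side DRGs. Of 20 genes of folding and modification above the rule, none was 25% higher and Creb3l1, a transcription factor that activates type I collagen genes in osteoblasts, was lower, with 79.0 in tumor-side DRGs and 108 in control-side DRGs. Serpinh1, the collagen chaperone HSP47, had 1348 in tumor-side DRGs and 1228 in control-side DRGs (0.13). Among extracellular partners of fibrils, Aspn, a small proteoglycan that binds collagen, had 920 in tumor-side DRGs and 649 in control-side DRGs, and Podn, of the same family, had 75.4 in tumor-side DRGs and 56.0 in control-side DRGs. Podn and Mmp16 passed the rule through the tumor side alone. Pcolce, which enhances the cleavage of procollagen, had 365 in tumor-side DRGs and 289 in control-side DRGs, and Tgm2, a crosslinking enzyme, had 445 in tumor-side DRGs and 353 in control-side DRGs.

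Markers of the cell types that make collagen were set beside these values. Osteoblast markers had summed signals of 802 in tumor-side DRGs and 432 in control-side DRGs over 6 measured genes. Only 2 of these 6 were above the rule, Bglap with 446 in tumor-side DRGs and 166 in control-side DRGs, and Ibsp with 193 in tumor-side DRGs and 100.2 in control-side DRGs. The other 4 summed to 163 in tumor-side DRGs and 166 in control-side DRGs, with 2 higher and 2 lower on the tumor side, and none of the 6 was as dim as the trp control probe sets. Fibroblast markers summed to 23123 in tumor-side DRGs and 21696 in control-side DRGs over 8 genes, all above the rule. Dcn and Lum supplied most of that sum, and Dcn was the 1 of the 8 that was lower (log2 ratio -0.02). Meningeal and perineurial markers summed to 9236 in tumor-side DRGs and 7859 in control-side DRGs over 10 genes, of which 7 were above the rule. Above the rule, the median log2 ratio was 0.16 for fibroblast markers and 0.23 for meningeal and perineurial markers, against 0.08 for all genes. The part of osteoblast, fibroblast, meningeal and perineurial markers in the higher signals of Col1a1 and Col1a2 was not tested. Cartilage cell markers summed to 2263 in tumor-side DRGs and 1972 in control-side DRGs over 9 genes. The 4 above the rule were all higher on the tumor side as deposited, 2 of them above the median gene. Without Cnmd, the cartilage protein chondromodulin, the sums were 562 in tumor-side DRGs and 531 in control-side DRGs, with 5 of 8 genes higher and 3 lower. Of the 9 cartilage markers, Chad was no brighter than the trp control probe sets on the control side. Acan, the main proteoglycan of cartilage, was below the rule and lower on the tumor side, with 11.8 there and 23.8 in control-side DRGs. Most skeletal muscle markers were lower, with 8 of 10 genes above the rule at least 2 times lower, against 0.186% of all genes above the rule. Tnnc2, Tnni2, Tnnt3, Myl1, Myh4, Ckm and Myl11 passed the rule through the control side alone, where they were brighter. The summed signal was 3377 in tumor-side DRGs and 4065 in control-side DRGs over the 12 genes measured. Of the 10 above the rule, Myh1 with 1742 in tumor-side DRGs and 1583 in control-side DRGs and Pvalb with 1200 in tumor-side DRGs and 1063 in control-side DRGs were not lower. Together Myh1 and Pvalb supplied most of both sums, so the sums understate how far the other genes were lower. Whether the signals of Myh1 and Pvalb come from muscle was not tested. The part of the cartilage and muscle cell markers in the collagen values was not tested.

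**Figure D5:**
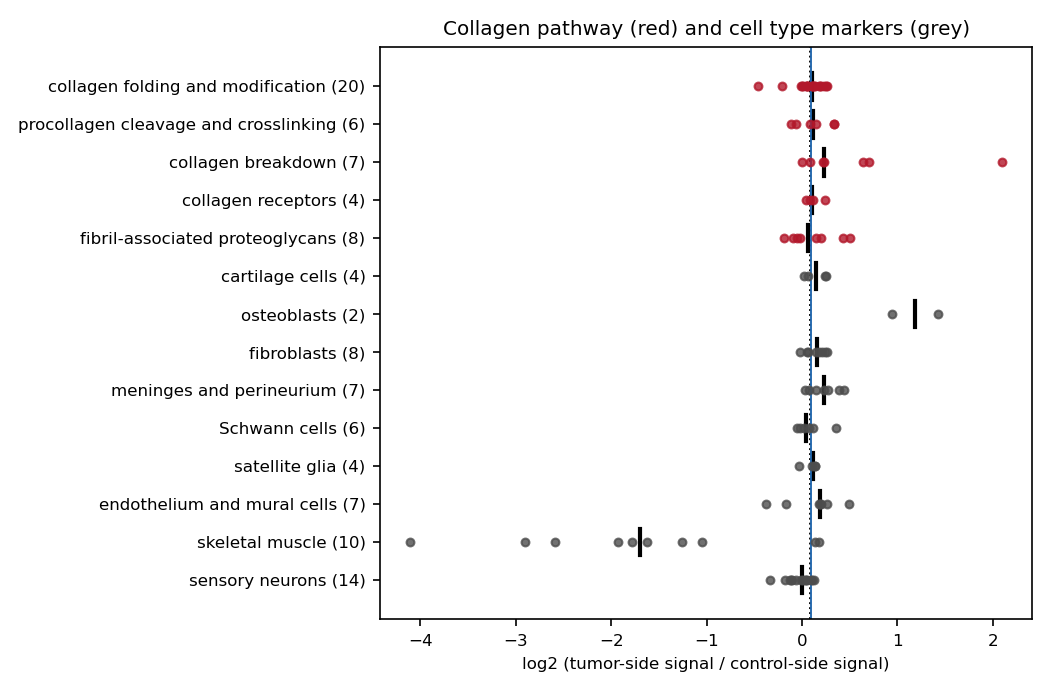
Log2 ratio (signal on the tumor side over that on the control side) of collagen pathway genes (red) and cell type markers (grey) that passed the rule, each point a gene, with gene counts in brackets and bars at the list medians. The dotted line is the median gene (0.08) and the blue line that of the collagens (0.10). The 2 osteoblast markers above the rule lie to the right and most skeletal muscle markers to the left of both.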

How the data were processed

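The authors labelled 100 ng of total RNA per side, hybridized it to GeneChip Rat Genome 230 2.0 arrays and derived signal intensity values with MAS 5.0 at default settings. These deposited intensity values, on a linear scale, were used as they are. The arrays carry 57 control and 31042 other probe sets; a single gene symbol was given for 20826 of the non-control ones, more than 1 for 436 and none for 9780. Of the 20826, 20758 matched the RefSeq annotation GRCr8 by gene identifier and no symbol changed.

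Log2 ratios of tumor side over control side were computed without a pseudocount, and the signal rule, the choice of 1 probe set per gene and the folds are those of the report. The number of arrays, 1 for each side, allows no test and limits the precision. Members, lists and the bands of signal were chosen with earlier results of these data known. All members of the compared classes, all other collagens and the 8 pathway genes with the largest ratios in size above the rule were named. Serpinh1, Mmp2, Mmp14, Mmp15, Mmp16 and the single markers named were chosen after their values were seen. Where a signal was no higher than the highest of 3 trp control probe sets of its array, no fold is given. Lists were matched by symbol or synonym. Alternatives were quantile normalization, median centring, loess (span 0.3), a pseudocount of 11.1, other signal filters, other choices of probe set and other folds. The computation was tested on simulated data. Software was pandas 2.3.3 and numpy 2.4.6 under Python 3.11.15, with loess from statsmodels 0.14.6 and plots from matplotlib 3.10.9.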

Additional observations from a re-analysis of the deposited data

How the results depend on the processing

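Over the alternatives, the median of all collagens ranged from 0.02 to 0.14, that of fibrillar collagens from 0.03 to 0.19, of basement membrane collagens from -0.09 to 0.03, of FACITs from 0.04 to 0.28 and of cartilage collagens from -0.04 to 0.14. The lowest FACIT median came without a signal filter, where Col20a1, no brighter than the trp control probe sets, was counted. The 5 settings that can alter the ratio of a single gene gave 195 values, of which 11 differed by more than 0.18, the SD between probe sets of a gene over 2198 genes, 6 with the pseudocount, which lowers dim ratios by construction, and 5 with the mean over probe sets. Leaving out probe sets named _x_at or _s_at, which no collagen has, and asking for both signals at the median, which all 28 reach, could not change a collagen's value. The FACIT median with type IX chains, a choice made after seeing the data, was 0.04. The number of collagens above the median gene was 23 without a signal filter and 7 with the filter at percentile 75, which keep 41 and 12 collagens. Without a signal filter, 6 of 41 were at least 1.5 times higher, Col4a4 with its control-side signal at the trp level among them, against 7.97% of all genes, and 1 was at least 1.5 times lower, against 6.25%. With the lower fold in place of 1.5, 5 of 28 were higher. With quantile normalization, median centring and loess, 16, 14 and 16 of 28 collagens had a log2 ratio above 0, against 21 as deposited. Each of these settings puts the median gene near 0, whereas as deposited 6867 of all 9691 genes above the rule had a log2 ratio above 0. At least 25% higher in each setting was 1 collagen, Col4a2, against 4.05%, 3.92% and 4.06% of all genes. As deposited, 5 collagens were at least 25% higher, against 7.54% of all genes. That count became 11 when no gene was left out for dim signal, where 15.8% of all genes were that much higher, 2 at percentile 75 (3.32%) and 4 for the mean over probe sets (10.9%). No paired analysis was possible because a side has a single array. Ratios of dim genes scatter more widely than those of bright ones.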

Other observations

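Vessel and glia cells lay down much of the basement membrane of a ganglion, and their markers were read beside the type IV chains. Endothelial and mural markers above the signal rule had a median log2 ratio of 0.19 over 7 genes, and over all 10 measured it was 0.13. Below the rule were Pecam1 (0.02), Vwf (0.09) and Pdgfrb (0.03). Cldn5, a tight junction protein of endothelium, had 265 in tumor-side DRGs and 220.2 in control-side DRGs. Cspg4, the pericyte proteoglycan NG2, had 79.1 in tumor-side DRGs and 56.4 in control-side DRGs, and passed the rule through the tumor side alone. Acta2, the smooth muscle actin, was lower, with 181 in tumor-side DRGs and 236 in control-side DRGs. So was Myh11, with 93.1 in tumor-side DRGs and 104 in control-side DRGs. Schwann cell markers had a median of 0.05 over 6 genes, and satellite glia markers 0.12 over 4 genes. Mbp, a myelin protein, had 8077 in tumor-side DRGs and 7967 in control-side DRGs. Their part in the values of Col4a1 and Col4a2 was not tested.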
